A study of Mus musculus with 6 samples.

Results

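The cytosolic ribosomal protein genes were taken from the table by symbol, as Rpl or Rps followed by a number and at most a short suffix, with Rplp0, Rplp1, Rplp2 and Rpsa. The rule found 80 of the 12023 genes listed, 49 of the large and 31 of the small ribosomal subunit. The members were chosen by symbol, but the family was selected on measured values, since the CPM of Rpl29 had differed between the strains in these same libraries. For that reason the strain values of Rpl29 are given as a description, and calls that include it are not read as a test of it. Of the 80, 74 are core ribosomal proteins and 6 are paralogues or pseudogenes that the symbols also match, namely Rpl7l1, Rpl22l1, Rpl32l, Rpl39l, Rps4l and Rps27l. Rpl26, Rps15a, Rps20, Rpl3l and Rpl10l fit the rule but are not among the genes analysed here.

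The cells were primary fibroblasts of the mammary fat pad, grown from healthy BALB/c or C57BL/6 females aged 8 to 12 weeks, both untreated and without a named allele, with 3 biological replicates per strain. All cells were kept in culture for 4 days on collagen before polyadenylated RNA was counted at its 3′ ends. The labels do not say whether a replicate was 1 mouse or a pool.

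Each ribosome holds a set of the core proteins around its ribosomal RNA, and the large subunit joins amino acids while the small subunit reads the messenger. Their messengers are among the most abundant of a growing cell and share a pyrimidine-rich 5′ start through which mTOR signalling sets their translation. Abundant messengers of this kind were often copied back into the mouse genome, and the resulting processed pseudogenes, which lack introns, can match the parent gene almost base for base. Rpl29 is a basic protein of the large subunit, also described as a heparin-binding protein, and mice that lack it are viable but small.

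A read that matches both a gene and a copy can belong to either. The last 120 coding bases of Rpl29 are therefore shown with the matching bases of 3 of its closest processed pseudogenes. The gene lies on GRCm38 chromosome 9, from 106429454 to 106431568 on the plus strand. Its longest annotated protein-coding transcript, whose 3′ end is incomplete, has 3 exons. The stretch shown ends with the stop codon and covers chr9:106431330-106431449. The copy Gm13841 lies on the minus strand at chr5:115801677-115801796. Gm15454 lies on the plus strand at chr1:134518444-134518563, and Gm46203 on the plus strand at chr10:116632184-116632303. Capitals mark the bases that differ from Rpl29, read 5′ to 3′ on the strand of each gene.
Rpl29: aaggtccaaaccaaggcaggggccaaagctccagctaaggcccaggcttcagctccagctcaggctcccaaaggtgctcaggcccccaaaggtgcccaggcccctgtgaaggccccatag
Gm13841: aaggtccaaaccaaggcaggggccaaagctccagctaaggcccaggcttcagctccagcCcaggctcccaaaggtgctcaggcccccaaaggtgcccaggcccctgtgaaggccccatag
Gm15454: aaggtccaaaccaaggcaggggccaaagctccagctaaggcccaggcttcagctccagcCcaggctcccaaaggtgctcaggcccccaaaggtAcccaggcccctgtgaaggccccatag
Gm46203: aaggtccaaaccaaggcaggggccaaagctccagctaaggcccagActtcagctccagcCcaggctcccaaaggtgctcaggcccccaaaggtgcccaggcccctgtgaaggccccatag

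Positions in a substitution count from 1 at the 5′ end of this stretch, with the base of Rpl29 named before the position and that of the copy after it. Gm13841 differed by T60C alone, as did Gm14036 and Gm8210. Gm15454 carried T60C and G94A, and Gm46203 carried G46A and T60C. Of 30 processed pseudogenes set against the stretch without gaps, 0 were identical to it and 7 differed at 1 or 2 bases. All 10 copies with at most 10 differences carried T60C. The other 20 did not line up well without gaps, among them Gm10709, which matched Rpl29 at 99.5% identity over 422 bases, and position 60 was not assessed in them. The other differences were scattered, and none was shared by more than 2 of the 10 copies.

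Total counts ran from 1035485 to 4665896 per library, and 3 counts corresponded to between 0.606 and 2.87 CPM, where CPM is the library-scaled count (per 1e6, after TMM scaling). A count at the 3′ end depends little on transcript length, so CPM were compared between genes. Fibroblast markers were present, 11 of 12 with a row, and their summed CPM ran from 3045 in C57BL/6 replicate 1 to 15824 in C57BL/6 replicate 2. Epithelial markers, 9 of 10 with a row, summed to between 1599 CPM in BALB/c replicate 1 and 15031 CPM in C57BL/6 replicate 1. They exceeded the fibroblast sum in C57BL/6 replicate 1 and in BALB/c replicate 2 (9520 against 7331 CPM). Immune markers summed to 455 to 893 CPM and endothelial markers to 12.0 to 46.1 CPM, and no adipocyte marker of 4 is among the genes analysed here. In such bulk cultures, fewer cells of a type and less RNA per cell cannot be told apart.

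Rpl29 was counted 74, 45 and 33 times in BALB/c replicates 1, 2 and 3, and 2230, 2664 and 6314 times in C57BL/6 replicates 1, 2 and 3. Scaled to library size, BALB/c had 48.9, 15.9 and 31.6 CPM and C57BL/6 had 1687, 2062 and 1276 CPM. Every BALB/c library was low and every C57BL/6 library high, and the lowest C57BL/6 library stood 26.1-fold above the highest BALB/c library. Mean levels were 32.1 ± 16.5 CPM for BALB/c and 1675 ± 393 CPM for C57BL/6 (SD, 3 libraries each), a fitted log2 difference of -5.72 with a standard error of 0.50. Without BALB/c replicate 2 and C57BL/6 replicate 1, the libraries with the most epithelial marker RNA relative to fibroblast marker RNA, the log2 difference was -5.36. In C57BL/6 Rpl29 ranked 35 of the 80 genes by mean CPM, an ordinary ribosomal protein level, and in BALB/c it ranked 70. It made up 1.12% to 1.39% of all ribosomal protein counts in the C57BL/6 libraries and at most 0.0356% in the BALB/c libraries.

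**Figure D1:**
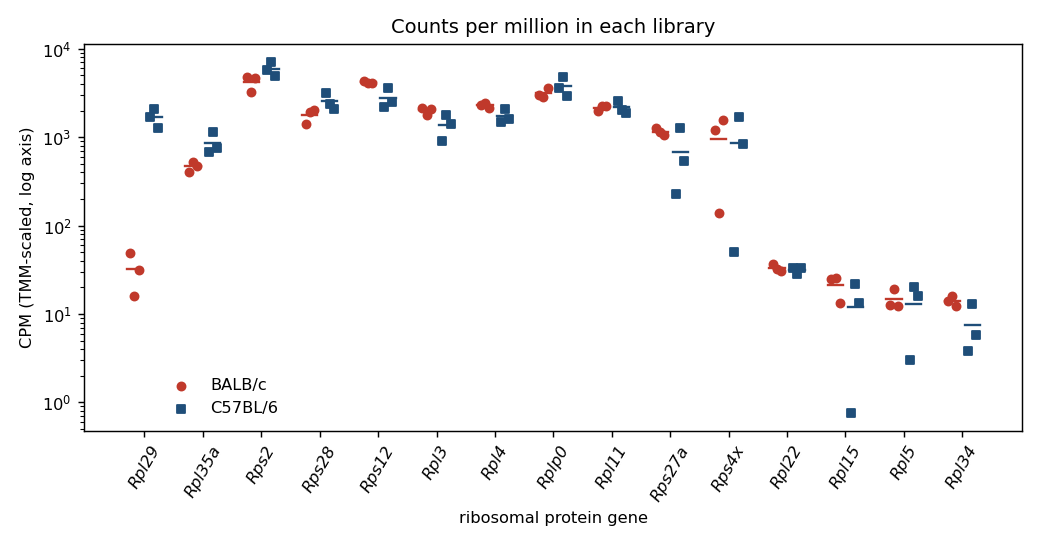
CPM on a log axis for 15 ribosomal protein genes in each library, with BALB/c as circles, C57BL/6 as squares and a short line at the mean of each strain's 3 libraries. Rpl29 lies between 15.9 and 48.9 CPM in BALB/c and between 1276 and 2062 CPM in C57BL/6, while the Rps4x points are spread within both strains.

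No other tested ribosomal protein gene came near this separation. A test was possible for 77 of the 80 genes, since Rpl21, Rpl30 and Rps27 fell below the filter on low counts. The other 76 lay between a log2 difference of -0.87 (Rpl35a) and 0.92 (Rpl34), BALB/c minus C57BL/6, and 64 of them, or 84.2%, lay within 0.5 of zero, against 72.0% of all tested genes. A log2 difference beyond 1 was seen in 0 of these 76 and in 5.39% of all tested genes. The median standard error was 0.27 for the 76 and 0.41 for all tested genes, so these shares compare genes of unlike error. Some other fits put members beyond 1. Rps27a reached 1.59 without C57BL/6 replicate 2, Rpl34 1.22 in limma-voom and Rpl15 1.17 with the replicate block. Rpl35a reached -1.01 without C57BL/6 replicate 1. The median log2 difference was 0.13 over the 77 and 0.01 over all tested genes. Without C57BL/6 replicate 3 the member median was 0.02, and without C57BL/6 replicate 2 it was 0.22. The medians over all tested genes were then -0.0006 and 0.06. Of the 46 other large subunit genes 35 had a positive difference and 11 a negative one, and of the 30 small subunit genes 17 were positive and 13 negative. The same split over all tested genes is not given here.

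**Figure D2:**
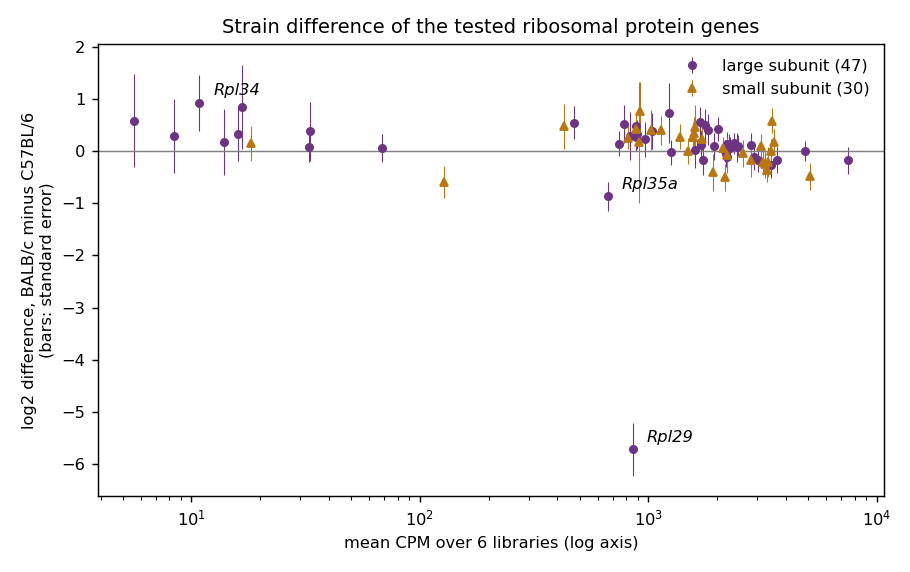
Log2 difference, BALB/c minus C57BL/6, of the 77 tested genes against mean CPM over 6 libraries on a log axis, with bars of 1 standard error and the subunits in different colours. Rpl29 lies at -5.72, and all other points lie between -0.87 and 0.92.

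With edgeR's quasi-likelihood test and Benjamini-Hochberg adjustment over 8752 genes at 0.05, 1 of the 77 genes was past the threshold, Rpl29, beside 18 genes or 0.206% of all tested. It was 1 of 77 for genes lower in BALB/c, beside 0.137% of all tested, and 0 of 77 for genes higher in BALB/c, beside 0.0686%. This contrast is the one that singled Rpl29 out, so the count is no test of Rpl29 and nothing is read from it. The lowest adjusted p of the other 76 was 0.954. At an unadjusted p under 0.05 there were 3 of the 77, Rpl29, Rpl35a and Rps12, or 3.90%, close to the 3.86% of all tested genes. That closeness depended on 1 library. Without C57BL/6 replicate 2, edgeR gave 22 of 77 members at an unadjusted p under 0.05, beside 598 of 9078 genes. Every other fit gave 2 to 4 members. The strains' CPM did not overlap for 10 of the 77, or 12.99%, beside 11.4% of all tested genes. When any 1 of replicates 2 and 3 of BALB/c and replicate 3 of C57BL/6 was left out of the edgeR fit, 0 of the 77 and 0 genes of the whole table were past the threshold.

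The BALB/c libraries all lay lower for 4 of the 77, beside 6.22% of all tested genes, and these were Rpl29, Rpl35a, Rps2 and Rps28. Rpl35a, a large subunit protein mutated in some families with Diamond-Blackfan anaemia, stood at 405, 525 and 478 CPM in the BALB/c libraries and at 680, 1138 and 753 CPM in the C57BL/6 libraries. The BALB/c libraries were all lower, but the lowest C57BL/6 library was only 1.29 times the highest BALB/c one. The log2 difference was -0.87 ± 0.28 (standard error), with an adjusted p of 0.954 in the edgeR test. Rps2, of the small subunit near the messenger entry channel, stood at 4822, 3254 and 4648 CPM in BALB/c against 5775, 7171 and 4889 CPM in C57BL/6. Its log2 difference was -0.49 ± 0.25. Rps28 differed by -0.50 ± 0.26 on the log2 scale.

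The BALB/c libraries all lay higher for 6 of the 77, beside 5.15% of all tested genes, and these were Rpl3, Rpl4, Rpl35, Rps3, Rps12 and Rps27l. Rps12, a small subunit protein, had 4278, 4156 and 4090 CPM in BALB/c and 2210, 3624 and 2530 CPM in C57BL/6, a log2 difference of 0.58 ± 0.25. Rpl3, which lies close to the catalytic centre of the large subunit, differed by 0.56 ± 0.29, and Rpl4, which lines the exit tunnel, by 0.42 ± 0.22. None of the 6 passed the adjusted edgeR test (adjusted p 0.954 for each).

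The P stalk, formed by Rplp0, Rplp1 and Rplp2, recruits the elongation factors. Rplp1 was the highest of the 80 genes, at 7369, 6812 and 6931 CPM in BALB/c and 10568, 7523 and 5761 CPM in C57BL/6. The C57BL/6 libraries lay on both sides of the BALB/c ones. The log2 differences of the stalk genes were -0.27 ± 0.25 for Rplp0, -0.18 ± 0.26 for Rplp1 and -0.17 ± 0.25 for Rplp2. Rpsa, a small subunit protein also known as the laminin receptor precursor, differed by 0.17 on the log2 scale. Rpl11, which with Rpl5 and the 5S RNA can bind Mdm2, had equal means within the spread, 2167 ± 168 CPM for BALB/c and 2168 ± 356 CPM for C57BL/6 (SD, 3 libraries each). Rpl41, the smallest protein of the ribosome, varied least of all 80 genes, at 4863 ± 262 CPM for BALB/c and 4850 ± 251 CPM for C57BL/6. Its coefficient of variation over the 6 libraries was 4.72%, against 109% for Rpl29.

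The genes together took 14.3%, 13.8% and 14.5% of all counts in BALB/c and 13.1%, 14.8% and 11.9% in C57BL/6. The strains overlapped. The ratio of large to small subunit counts was 1.24, 1.29 and 1.26 in BALB/c and 1.17, 1.27 and 1.29 in C57BL/6, again with overlap.

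A small group of core genes had low counts in both strains. The gene annotation used for counting is not given in the labels, and its part in these low counts was not tested. Rpl5, Rpl15, Rpl21, Rpl22, Rpl30, Rpl34, Rpl39, Rps24 and Rps27 reached at most 37.0 CPM in any library, with means over 6 libraries of 2.44 to 32.6 CPM. The median of these 9 means was 10.8 CPM, against 1925 CPM for the other 64 core genes without Rpl29. Rpl5, the partner of Rpl11 on the 5S RNA, had 12.5, 19.1 and 12.5 CPM in BALB/c and 3.03, 20.1 and 15.96 CPM in C57BL/6, although Rpl11 stood at about 2168 CPM. Rpl22 had 37.0, 32.6 and 30.7 CPM in BALB/c and 33.3, 28.6 and 33.5 CPM in C57BL/6. Rps27 had 9.91, 2.48 and 4.79 CPM in BALB/c, and in C57BL/6 0, 3.87 and 0.404 CPM, where a count of 0 allows up to 2.27 CPM. The BALB/c level of Rpl29, 15.9 to 48.9 CPM, overlapped the range of these 9 genes, and among the 74 core genes Rpl29 alone had such a level in 1 strain and an ordinary one in the other. The log2 differences of low genes carry larger errors, as for Rpl34 (0.92 ± 0.53) and Rpl15 (0.84 ± 0.81).

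Among the paralogues, Rps27l, known as a p53 target, was the only one at a level like the core genes, 887 ± 145 CPM for BALB/c and 742 ± 28.03 CPM for C57BL/6. Rpl39l, best known from testis, was at 37.2 ± 25.6 and 28.8 ± 14.5 CPM. Rpl7l1 was at 69.9 ± 12.7 and 67.2 ± 11.3 CPM. Rps4l, annotated as a transcribed processed pseudogene, stood at 101 ± 27.3 CPM for BALB/c and 153 ± 44.4 CPM for C57BL/6, a log2 difference of -0.59 (adjusted p 0.954, edgeR).

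Processed copies were counted for all the genes in the same way. In the last 500 bases of its longest protein-coding transcript, Rpl29 matched 35 annotated genes elsewhere at 95% identity or more over at least 60 bases. Copies that held at least 80% of its coding sequence numbered 26, of which 24 are annotated as pseudogenes. This placed Rpl29 behind Rpl21 (57) and Rpl7a (33), with a median of 5 over the 78 genes with a coding sequence, and 73 of the 78 had at least 1 such copy. The only copy of Rpl29 with a row of its own was Uimc1, whose transcript runs over the pseudogene Gm6344. It matches Rpl29 over 424 bases at 99.8% identity. Uimc1 lies on the minus strand and Gm6344 on the plus strand, so this match is to the reverse complement of Rpl29. Whether reads of Rpl29 could be counted for Uimc1 depends on the strand setting, which is not given. Uimc1 was counted 44, 55 and 28 times in BALB/c and 9, 36 and 99 times in C57BL/6, which is 19.5 to 29.1 CPM and 6.81 to 27.9 CPM. The strains overlapped for Uimc1, and its level was close to that of Rpl29 in BALB/c. Copies were counted by gene throughout, so Uimc1 and Gm6344, at the same place in the genome, were both among the 35.

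Of the windows of 50 bases in that 3′ end, 15.5% of those of Rpl29 occurred in no annotated transcript of another locus. The median was 60.4% for the 80 genes and 100% for 11772 other genes of the table. Fewer than 50% of windows were unique for 34 of the 80 genes, or 42.5%, against 1.13% of the others. Shared 3′ sequence was common in the family, and 13 members had a smaller unique share than Rpl29. These unique windows of Rpl29 were the first 70 of 451, away from the incomplete 3′ end of that transcript. In the principal transcript, whose annotated 3′ end is complete, the share was 26.8% for Rpl29, and 28 members lay below it. There the first 271 of 451 windows were all shared. All unique windows lay nearer the 3′ end, in runs mixed with shared ones, the longest being 73 windows (362 to 434). Within coding sequence alone Rpl29 kept 9.68% of windows unique, and 27 of the 78 genes kept 0. All unique coding windows of Rpl29 lay in the stretch of 120 bases shown above and spanned its position 60, the site of T60C. Most windows over that base were unique to Rpl29 among annotated transcripts, and the others were shared.

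Rpl7a, Rpl17, Rpl23a, Rps2 and Rps12, each tested and with at least 15 full-length copies, lay between -0.49 and 0.58 on the log2 scale. Rpl7a, with 33 copies, had 2512, 2270 and 2728 CPM in BALB/c and 2374, 2297 and 2099 CPM in C57BL/6, a log2 difference of 0.15 ± 0.20. The 13 genes with a smaller unique share than Rpl29 lay between -0.49 and 0.76. The 9 low core genes had 1 to 57 full-length copies with a median of 7, and the other 64 core genes 0 to 33 with a median of 5.5, so the number of copies overlapped widely between low and high genes. How the reads shared by Rpl29 and its copies were counted in each strain was not tested, since reads were not used here.

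**Figure D3:**
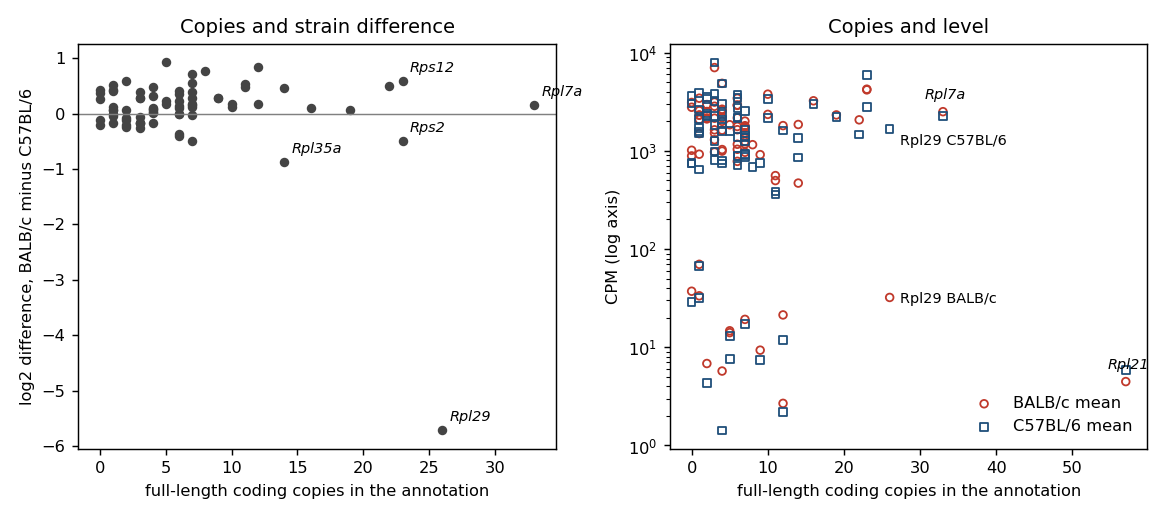
The left plot sets the log2 difference, BALB/c minus C57BL/6, of the tested genes against the number of full-length coding copies in the annotation, and the right plot sets the mean CPM of each strain on a log axis against the same number. Rpl29, with 26 copies, lies at -5.72, while Rpl7a, with 33 copies, lies at 0.15.

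The other 6 ribosomal protein genes on chromosome 9, Rpl4, Rpl14, Rplp1, Rps25, Rps27l and Rpsa, lay between -0.18 and 0.42 on the log2 scale. The exons of Rpl29 overlapped those of no other annotated gene, whereas 37 of the 80 genes had such an overlap.

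Rps4x, the X-linked small subunit protein, varied strongly within each strain. It had 1209, 138 and 1554 CPM in BALB/c and 50.7, 1689 and 844 CPM in C57BL/6. BALB/c replicate 2 and C57BL/6 replicate 1 were low and the other 4 libraries high, and both strains thus held low and high libraries, with a coefficient of variation of 76.6% over all 6. Npm1, a nucleolar chaperone of ribosome assembly, was low in the same libraries, with 815, 49.3 and 477 CPM in BALB/c and 15.9, 793 and 452 CPM in C57BL/6. These are the libraries in which the epithelial marker sum exceeded the fibroblast marker sum. In C57BL/6 replicate 3 the sums were nearly equal, at 8430 CPM for epithelial and 8468 CPM for fibroblast markers. The part of these marker levels in the Rps4x level was not tested.

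Further genes were low in C57BL/6 replicate 1. Of the 66 genes with a mean over 200 CPM, 8 lay at least 1 log2 unit below the median of the other 5 libraries there, Rpl7, Rpl10, Rpl10a, Rps4x, Rps6, Rps23, Rps25 and Rps27a. Rps4x lay lowest, at -4.55. Rpl10, Rpl10a and Rps27a were also at least 1 unit low in C57BL/6 replicate 3, at -1.07, -1.11 and -1.08. Rpl7 had 258 CPM in this library, against 882 to 1639 CPM in the others. Rps27a, which is made as a fusion with ubiquitin, had 229 CPM against 535 to 1279 CPM. The 3′ ends of the 8 genes were lower in G and C, with a median of 45.1% against 49.8% for the rest, and ranged from 38.0% to 50.6%. Across 65 genes without Rpl29, the deviation in this library and the G and C content had a Pearson r of 0.476, and the points share 1 library and its depth. In the BALB/c libraries the same r was -0.164, 0.0153 and -0.160, by replicate number. The remaining C57BL/6 libraries gave -0.247 (replicate 2) and 0.254 (replicate 3). The part of base composition in these levels was not tested.

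**Figure D4:**
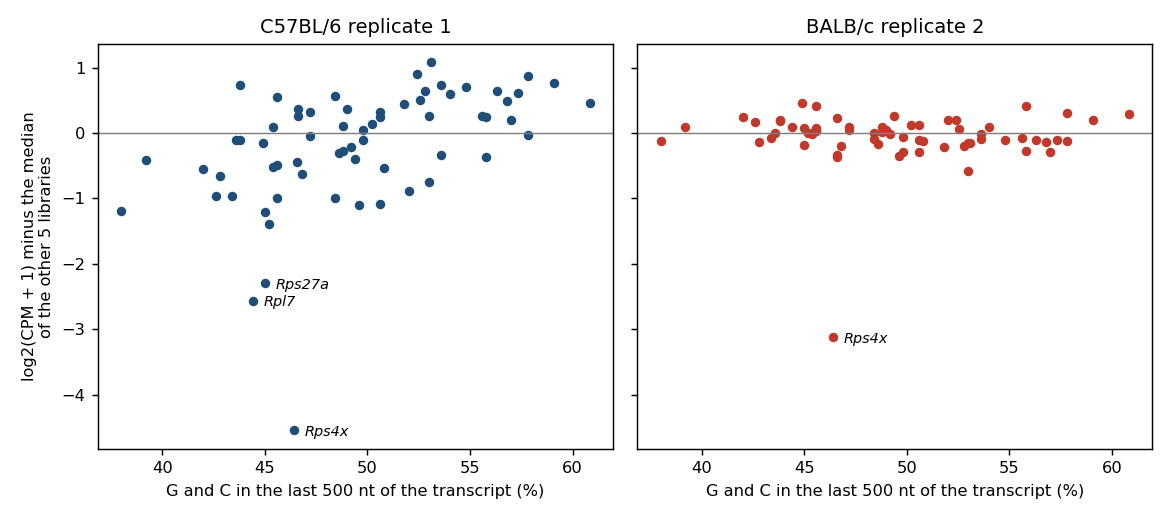
Deviation of log2(CPM + 1) from the median of the other 5 libraries against G and C content of the last 500 bases of the principal transcript, for 65 ribosomal protein genes without Rpl29, in C57BL/6 replicate 1 (left) and BALB/c replicate 2 (right). Rps4x lies low in both, while Rpl7 and Rps27a lie low only on the left.

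Lists of other translation genes are described beside the 0.206% of all tested genes called by edgeR and the 3.86% at an unadjusted p under 0.05. At the first share, lists of this size would mostly hold no called gene, so a count of 0 does not set them apart. Fau, Rack1 and Rpl36al, ribosomal protein genes outside the symbol rule, lay between 0.02 and 0.45 on the log2 scale, with 0 past the threshold in edgeR, DESeq2 and limma-voom and 0 at an unadjusted p under 0.05 in each. Among 34 translation factors edgeR called 0 higher and 0 lower in BALB/c, with a median of 0.16 and a range from -0.53 (Eif4g1) to 0.81 (Eif2s2). At an unadjusted p under 0.05 there were 0 in edgeR, 0 of 35 tested in DESeq2 and 1 in limma-voom, Eif3l. Among 37 ribosome assembly genes edgeR called 0 higher and 0 lower, with a median of 0.04. In these 0 had an unadjusted p under 0.05 in any of the 3 tools, with 40 tested in DESeq2. Among 66 mitochondrial ribosomal protein genes 0 were called by edgeR, with a median of 0.12 and a range from -1.10 (Mrps12) to 1.03 (Mrpl23). DESeq2, with 72 tested, and limma-voom also called 0 of this family. Mrps12 was the 1 gene at an unadjusted p under 0.05 in edgeR, with 2 such genes in each other tool.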

How the data were processed

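The authors deposited raw counts per gene symbol for 6 libraries, and all sample columns were matched to the labels. The tools were STAR 2.4.2a, bcl2fastq and HTSeq, with the mm10 build, per the submitters' processing notes. The sources used here give no gene annotation for the counting, read length, strand setting, use of molecular identifiers or treatment of reads with several matches. They bear on Rpl29 because part of its 3′ sequence is shared with many copies. A further reason is that mm10 is the C57BL/6 genome, to which reads of other strains can align less well. Neither effect was tested.

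The members and gene lists were chosen with earlier results of these data known. Counts were filtered with filterByExpr, which left 8752 genes, scaled with TMM factors of 0.869 to 1.06 and fitted with edgeR 4.0.16 in R 4.3.3, with strain as the only term and a two-sided quasi-likelihood test. The biological coefficient of variation was 41.1%. DESeq2 1.42.0, limma 3.58.1 (voom), other scalings and filters, a replicate block and leaving out each library were alternatives. P-values measure the spread between the libraries, whose sources the labels call biological replicates. On simulated counts of the comparison of the strains over 8368 genes, edgeR recovered 6% of 50 genes changed 2-fold. It recovered 40% of 50 changed 4-fold and 86% of 50 changed 16-fold, with 10 false calls. Intervals of counting were not used, and the limit for a count of 0 is 3 counts.

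Transcripts of GENCODE vM21 (GRCm38, the same assembly as mm10) gave positions, sequences and copies. Of the table's genes 98.6% were matched, with all 80 members. Copies were searched with BLAST 2.17.0 among annotated transcripts only, so unannotated copies were not counted. The longest transcript of Rpl29 and of Rpl34 has an incomplete annotated 3′ end. The principal (APPRIS) transcript and the coding sequence were therefore added as alternatives after seeing the data. Named genes were Rpl29, the 5 members at each end of the log2 differences, of mean CPM and of copy number, the P stalk genes, Rpsa, Rps27a, Rpl5, Rpl11 and the paralogues. Others were named after their values were seen, and some genes are not reported here. Exons were compared between genes without regard to strand.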

Additional observations from a re-analysis of the deposited data

How the results depend on the processing

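The log2 difference of Rpl29, the value for which it was chosen, was negative in every fit. No pairing by replicate number was evident. Same-numbered libraries deviated with correlations of -0.419, -0.397 and -0.0775, and no library correlated best with its own number. With 3 libraries per strain these values cannot exclude a pairing. With the replicate block 0 members and 0 genes were called by edgeR, and Rpl29 had a log2 difference of -5.80. Leaving out 1 library gave 0 to 1 members and 0 to 25 genes called by edgeR, with log2 differences of Rpl29 from -6.18 to -5.37, and 0 members when replicates 2 or 3 of BALB/c, or replicate 3 of C57BL/6, were missing. The count of 18 genes became 11 with library totals alone, 76 with DESeq2, 3 with limma-voom and 4 without BALB/c replicate 2 and C57BL/6 replicate 1 together, a choice made after seeing the data. It was 12 with a mean of at least 50 counts. Copies of Rpl29 numbered 70 at 90% identity and 12 at 98%. Its share of unique windows was 26.8% in the principal transcript and 9.68% in the coding sequence. Total counts of 1035485 in the shallowest library limit the genes under about 3 CPM.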
